A study of Mus musculus with 6 samples.

Results

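Matrix proteases and their inhibitors were followed in liver macrophage preparations as 10 genes chosen by name: the matrix metalloproteinases Mmp2, Mmp12, Mmp13, Mmp14 and Mmp19, the proteases Adamts1 and Adam17, and the tissue inhibitors Timp1, Timp2 and Timp3. All 10 were found among the 56691 genes of the deposited table, 1 row each, and all 10 were among the 16641 genes with enough counts to be tested. The samples were Kupffer cells, the macrophages that live in the liver sinusoids, from Vil1Cre-Myd88fl/fl mice. In these mice Cre recombinase is driven by Vil1, a gene of the intestinal epithelium, so the floxed Myd88 allele is a gut deletion that both groups carry. There were 3 libraries treated with 5-HT (serotonin) and 3 untreated ones, and the labels state neither age, dose, route nor time of treatment. They also do not say whether the 3 libraries of a group came from separate animals. All p-values therefore rest on library-to-library spread alone, and this spread may be technical.

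Metalloproteinases are zinc enzymes that cut collagen, elastin, other matrix proteins and the stalks of membrane proteins, and most are made as inactive precursors. TIMPs block them by binding the active site, so the amounts of both set how fast matrix is turned over. In liver, stellate cells and fibroblasts, endothelial cells and macrophages each make part of the set, and the balance is best known from the build-up and resolution of scars.

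Library totals were 15390956 to 17093251 counts in the 5-HT treated group and 18187617 to 19050039 in the untreated group. Kupffer cell markers were present in every library, Clec4f for example at 250 to 311 FPKM (fragments counted per kilobase of exon, scaled to the library total) in 5-HT treated and 150 to 217 FPKM in untreated libraries. Markers of other liver cells were present too: the 11 endothelial markers summed to 3370 to 4530 FPKM in 5-HT treated and 4220 to 4260 FPKM in untreated libraries, above the 13 Kupffer cell markers at 1660 to 1970 and 1050 to 1490 FPKM. Of the 13 Kupffer cell markers 3 rose (Adgre1, Marco and Cd163, log2 0.70, 1.14 and 0.84) and 10 did not pass by edgeR. Of the 13, 12 had positive values, 12 had an unadjusted p under 0.05 and DESeq2 called 8 as higher. Without untreated replicate 1 or without untreated replicate 3, 0 passed by edgeR (12 and 9 at an unadjusted p under 0.05). Hepatocyte markers summed to 782 to 1990 FPKM in 5-HT treated and 964 to 1910 FPKM in untreated libraries, and T and NK cell markers to 44.2 to 84.8 and 39.7 to 117 FPKM. The summed levels of different marker sets do not give cell shares, and in bulk RNA fewer cells of a type cannot be told apart from less RNA per cell. By neutrophil or by monocyte and macrophage markers, 1 library of each group stood apart. 5-HT treated replicate 2 had summed neutrophil markers of 929 FPKM, against 355 to 485 in the other 5-HT treated libraries. Untreated replicate 2 had summed monocyte and macrophage markers of 1230 FPKM, against 336 to 370 in the other untreated libraries. Spp1 alone gave 924 FPKM of the 1230. Spp1 is also on the cholangiocyte and mesothelium list, which summed to 984 FPKM in that library, against 239 and 268 FPKM in the other untreated ones. Hepatocyte markers set 5-HT treated replicate 3 apart instead, at 782 FPKM, against 1990 and 1700 FPKM in 5-HT treated replicates 1 and 2.

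With 5-HT, Timp1 rose and the other 9 genes did not pass the test. This was 10% of the 10 genes, against 7.74% of all genes tested (edgeR quasi-likelihood test, Benjamini-Hochberg adjusted p under 0.05, either direction). By an unadjusted p under 0.05 it was 4 of 10 (Timp1, Adamts1, Mmp13 and Timp2; 40%), against 24.2% of all genes tested. The median log2 fold change of the 10 genes was 0.21 and that of all genes tested was -0.02. Ordered by mean level over the 6 libraries, the genes ran Timp3 (151 to 241 FPKM over the libraries), Adamts1 (mean 107 FPKM), Mmp14 (52.7), Timp2 (29.9), Adam17 (18.9), Mmp19 (5.17), Timp1 (4.88), Mmp13 (3.21), Mmp2 (2.83) and Mmp12 (1.33). Neighbours in this order had overlapping ranges over the libraries except at the step down to Mmp14, the step from Mmp14 to Timp2 and the step from Adam17 to Mmp19.

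**Figure D1:**
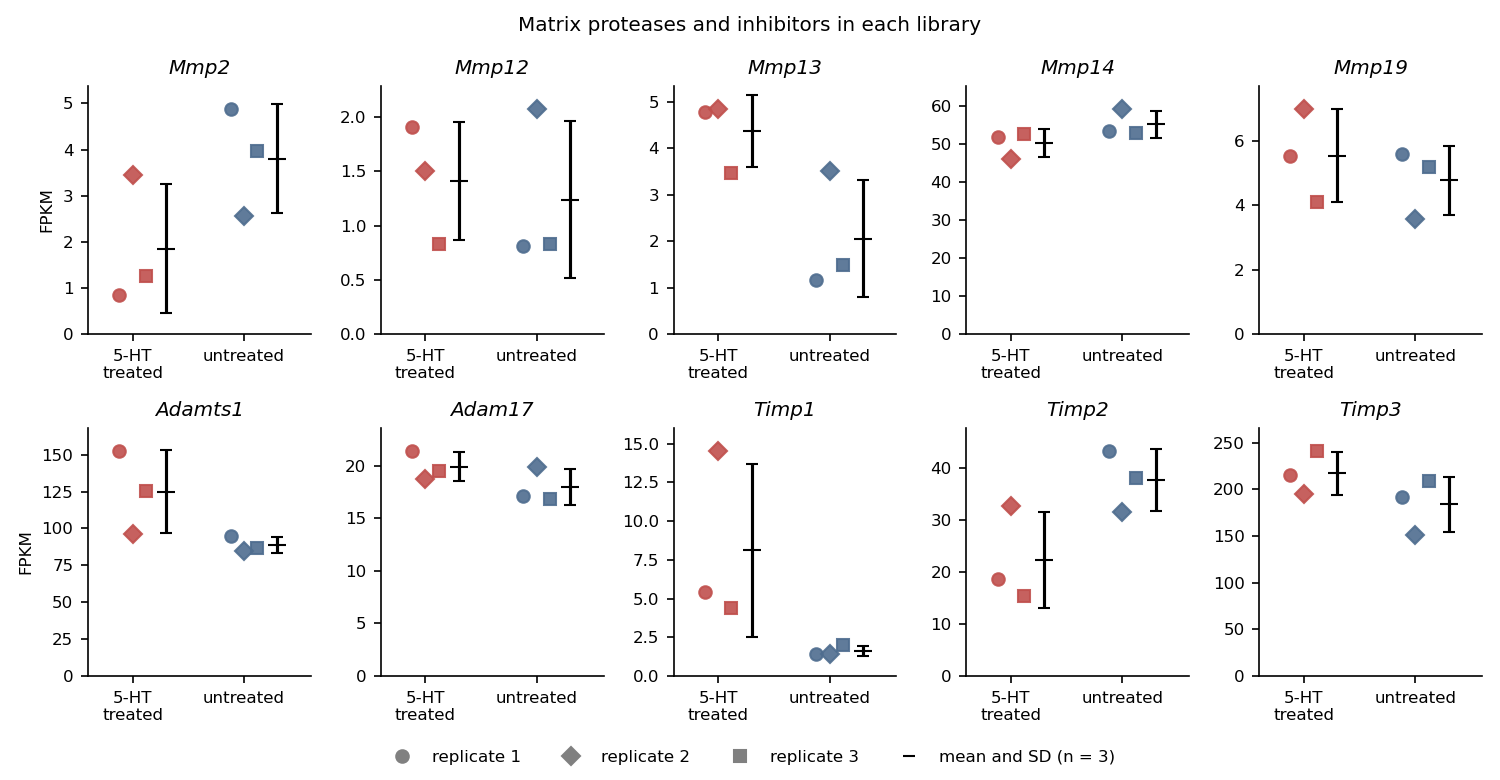
FPKM of each gene in each library, 5-HT treated on the left (red) and untreated on the right (blue), with circles, diamonds and squares for replicates 1, 2 and 3 and black marks for mean and SD (n = 3). The groups do not overlap for Mmp14, Adamts1 and Timp1, and 5-HT treated replicate 2 (red diamond) lies among the untreated libraries for Mmp2 and Timp2.

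The inhibitor Timp1, an inducible, secreted TIMP, is the gene that rose. Its level was 5.43, 14.6 and 4.41 FPKM in 5-HT treated replicates 1 to 3, against 1.42, 1.42 and 2.01 FPKM in untreated replicates 1 to 3. Every 5-HT treated library lay above every untreated one, and replicate 2 stood far above the rest of its own group. The fitted change was 5.00-fold (log2 2.32, SE 0.49, edgeR adjusted p = 0.0331). Depth was low for this short transcript of 888 exonic bases: 77, 199 and 67 counts in 5-HT treated libraries and 23, 23 and 34 in untreated ones, where a count of 23 has an exact 95% Poisson interval of 14.6 to 34.5 (counting error only). Without 5-HT treated replicate 2 the change was 3.04-fold (adjusted p = 0.0261). The call was lost when 5-HT treated replicate 1 or any of untreated replicates 1, 2 and 3 was left out, with adjusted p of 0.0613, 0.142, 0.0739 and 0.107. Timp1 (ENSMUSG00000001131) lies on chromosome X from 20870166 to 20874735, plus strand (GRCm38, GENCODE M21).

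Of 9 neutrophil markers tested, 6 rose and 3 did not pass, and 0 passed without untreated replicate 1 or without untreated replicate 3 (6 and 7 at an unadjusted edgeR p under 0.05). The summed level of all 11 neutrophil markers was 485, 929 and 355 FPKM in 5-HT treated replicates 1 to 3, against 177, 144 and 174 FPKM in untreated replicates 1 to 3. Ly6g, a defining neutrophil marker, was at 0.66, 1.1 and 0.37 FPKM in 5-HT treated replicates 1 to 3 and at 0, 0.06 and 0.33 FPKM in untreated replicates 1 to 3, too low to be tested. Cxcr2, Csf3r, S100a8 and S100a9 rose (log2 2.72, 1.43, 2.11 and 1.91, edgeR adjusted p = 0.0115, 0.0127, 0.0167 and 0.0235). S100a8 and S100a9 were the most abundant of the list, at 227 and 466 FPKM in 5-HT treated replicate 2. The granule genes Ngp, Ltf and Camp ran the other way without a call, whereas Mmp8 and Mmp9 of the same list also rose. Ngp had 2.36, 4.79 and 1.82 FPKM against 4.54, 6.51 and 4.73 FPKM (log2 -0.81, edgeR adjusted p = 0.231). Ltf had a log2 fold change of -0.33 (edgeR adjusted p = 0.649). Camp, not tested, had 0.66, 0.6 and 0.08 FPKM against 0.94, 0.72 and 1.45 FPKM. The genes whose profile over the 6 libraries was nearest that of Timp1, among 7791 with a mean of at least 5 FPKM, were the immunoglobulin light chain genes Igkv6-25, Igkc and Igkv5-43. Their centred log2(FPKM + 1) values differed from those of Timp1 by 0.14, 0.17 and 0.18 on average, and reads can be split between copies in that gene family. Igkc stood at 1215, 2809 and 641 FPKM in 5-HT treated replicates 1 to 3 and at 357, 388 and 483 FPKM in untreated replicates 1 to 3, so it too was highest in 5-HT treated replicate 2. Among the B and plasma cell markers, Jchain had 120, 257 and 68.3 FPKM against 33.4, 47.4 and 87.95 FPKM in the same order of libraries, and Cd79a had 13.6, 36.3 and 5.02 FPKM against 23.8, 15.96 and 26.2 FPKM. The part of these cells in the Timp1 level was not tested.

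Timp2, which inhibits MMPs and also takes part in the activation of pro-MMP2 on the cell surface, went the other way without passing by edgeR. It had 18.7, 32.7 and 15.3 FPKM in 5-HT treated replicates 1 to 3, against 43.3, 31.5 and 38.1 FPKM in untreated replicates 1 to 3. The groups overlapped through 5-HT treated replicate 2, which stood just above the lowest untreated library. DESeq2 called Timp2 as lower (adjusted p = 0.0335). By edgeR the log2 fold change was -0.76 (SE 0.28, edgeR adjusted p = 0.144). Without 5-HT treated replicate 2 Timp2 passed as lower, at 0.453 of the untreated level (log2 -1.14, adjusted p = 0.0123). It did not pass with any other single library left out, at 0.641, 0.681 and 0.639 without 5-HT treated replicate 1, 5-HT treated replicate 3 and untreated replicate 1 (adjusted p = 0.328, 0.263 and 0.372).

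Timp3, the TIMP that stays bound to the matrix and the main natural inhibitor of ADAM17, was the most abundant of the 10 genes. Its FPKM was 215, 195 and 241 in 5-HT treated replicates 1 to 3, against 191, 151 and 209 in untreated replicates 1 to 3. The ranges overlapped, and the log2 fold change was 0.24 (SE 0.16, edgeR adjusted p = 0.405), with an interval of 2 SE on either side from -0.08 to 0.57. Summed over the 3 inhibitors, the level was 239, 242 and 261 FPKM in 5-HT treated libraries, against 236, 184 and 249 FPKM in untreated ones. Timp3 made up 89.9%, 80.5% and 92.5% of that sum in 5-HT treated libraries, against 81.1%, 82.1% and 83.9% in untreated ones. Timp2 made up 7.82%, 13.5% and 5.85% of it in 5-HT treated libraries, against 18.3%, 17.1% and 15.3% in untreated ones, and here the groups did not overlap. The share of Timp1 was 2.27%, 6.01% and 1.69% with 5-HT, against 0.602%, 0.771% and 0.807% without. These shares are descriptions and were not tested.

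**Figure D2:**
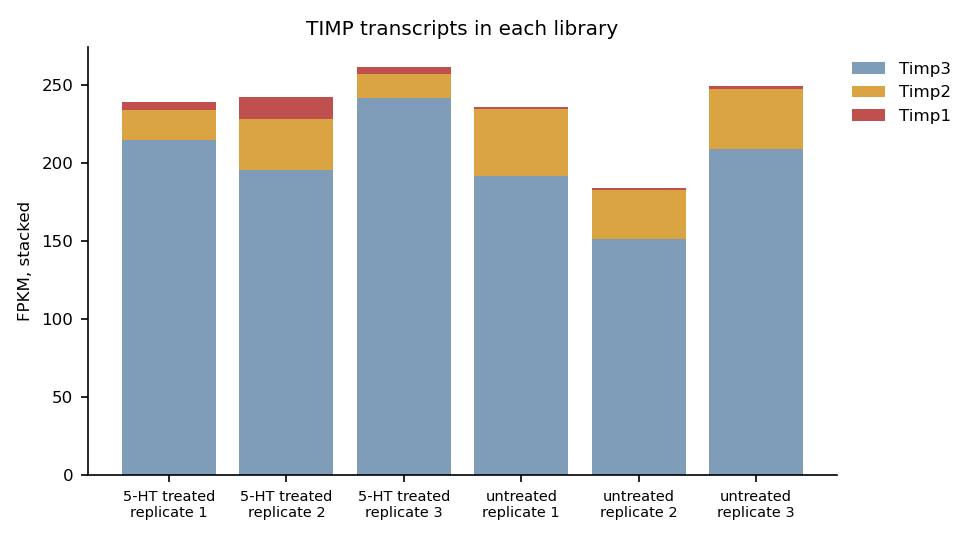
FPKM of Timp3, Timp2 and Timp1 stacked for each library, 5-HT treated on the left and untreated on the right. Timp3 makes up 80.5% to 92.5% of the sum in 5-HT treated and 81.1% to 83.9% in untreated libraries, and the Timp1 segment is tallest in 5-HT treated replicate 2.

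Among the collagenases and elastases, Mmp13, the main interstitial collagenase of rodents, was higher in 5-HT treated libraries on average. It had 4.78, 4.86 and 3.48 FPKM in 5-HT treated replicates 1 to 3, against 1.17, 3.51 and 1.49 FPKM in untreated replicates 1 to 3. One untreated library, replicate 2, reached the 5-HT treated range and exceeded its lowest member. DESeq2 called Mmp13 as higher (adjusted p = 0.045). By edgeR the change did not pass (2.14-fold, log2 1.1, SE 0.39, edgeR adjusted p = 0.138). Without untreated replicate 2 it was 3.26-fold and passed (adjusted p = 0.00975), and without 5-HT treated replicate 2 it was 2.03-fold (adjusted p = 0.224). With any other library left out it was 1.76-fold to 2.35-fold and did not pass (adjusted p = 0.152 to 0.342). Mmp12, the macrophage elastase, had 1.91, 1.5 and 0.83 FPKM in 5-HT treated libraries, against 0.81, 2.08 and 0.83 FPKM in untreated ones. It was highest in untreated replicate 2, the groups overlapped fully, and the log2 fold change was 0.20 (SE 0.43, edgeR adjusted p = 0.822), with an interval of 2 SE on either side from -0.66 to 1.07.

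Both genes lie in the MMP cluster of chromosome 9 on the plus strand, Mmp13 from 7272514 to 7283331 and Mmp12 from 7344381 to 7369499 (GRCm38, GENCODE M21), with 61049 bases between them. In both, untreated replicate 2 was the highest untreated library. Summed monocyte and macrophage markers, of which 0 of 9 passed by edgeR (0 also by DESeq2, by limma and at an unadjusted p under 0.05), were 497, 928 and 384 FPKM in 5-HT treated replicates 1 to 3, against 336, 1230 and 370 FPKM in untreated replicates 1 to 3. Without Spp1 they were 219, 314 and 160 FPKM, against 139, 309 and 149 FPKM. Whether cells of this kind gave the Mmp12 and Mmp13 reads was not tested.

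Start regions of the collagenase and elastase genes and of Timp1 are shown because these genes are textbook targets of AP-1, the Fos and Jun transcription factor dimer. The windows are those of RefSeq (GRCm38.p6), from 250 bases before to 50 bases after a gene's start, and 8 of the 10 genes had one. Capitals mark a match to the AP-1 motif TGANTCA on either strand or, in Timp1, to TGAGTAA, a variant known from this promoter and searched with the sequence in view.
Mmp13 (chr9:7272264-7272563, plus strand): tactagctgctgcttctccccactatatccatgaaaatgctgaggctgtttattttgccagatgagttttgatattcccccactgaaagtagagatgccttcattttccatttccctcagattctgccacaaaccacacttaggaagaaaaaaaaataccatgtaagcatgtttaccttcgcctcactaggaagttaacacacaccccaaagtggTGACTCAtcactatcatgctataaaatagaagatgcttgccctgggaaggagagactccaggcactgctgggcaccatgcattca
Mmp12 (chr9:7347124-7347423, plus strand, the second of its windows): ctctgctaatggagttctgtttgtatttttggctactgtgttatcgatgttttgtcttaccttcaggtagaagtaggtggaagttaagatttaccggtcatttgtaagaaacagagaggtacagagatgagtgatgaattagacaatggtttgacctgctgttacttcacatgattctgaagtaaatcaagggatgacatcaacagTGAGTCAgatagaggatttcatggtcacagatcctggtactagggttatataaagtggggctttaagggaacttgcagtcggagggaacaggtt
Timp1 (chrX:20869916-20870215, plus strand): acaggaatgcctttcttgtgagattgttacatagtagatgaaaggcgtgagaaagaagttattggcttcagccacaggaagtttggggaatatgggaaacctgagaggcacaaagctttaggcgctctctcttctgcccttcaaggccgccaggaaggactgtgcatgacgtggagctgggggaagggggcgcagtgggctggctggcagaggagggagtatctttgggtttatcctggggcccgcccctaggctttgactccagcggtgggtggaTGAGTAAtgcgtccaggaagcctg
The match began 35 bases before the start in Mmp13 and 44 bases before it in Mmp12. In Timp1 the variant began 26 bases after the start. TGANTCA was found in 7.81% of all 32851 windows and TGAGTAA in 2.68%. Neither was found in the windows of Timp2, Timp3, Mmp14, Adamts1 and Adam17 or in the first window of Mmp12. A match describes letters and is no evidence that a factor was bound. Of 10 AP-1 subunit genes tested, 0 passed by edgeR, 0 by DESeq2 and 0 by limma on log2(FPKM + 1), and 1 had an unadjusted edgeR p under 0.05. Fos was the most abundant, with 689, 646 and 728 FPKM in 5-HT treated libraries, against 628, 890 and 566 FPKM in untreated ones. Jun had 551, 447 and 641 FPKM, against 525, 714 and 456 FPKM.

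Mmp2, or gelatinase A, which degrades type IV collagen and denatured collagens, was lower in 2 of 3 5-HT treated libraries. It had 0.85, 3.45 and 1.25 FPKM in 5-HT treated replicates 1 to 3, against 4.89, 2.55 and 3.97 FPKM in untreated replicates 1 to 3. Again 5-HT treated replicate 2 lay inside the untreated range. The log2 fold change was -1.04 (SE 0.51, edgeR adjusted p = 0.262). Without that library Mmp2 passed as lower, at 0.279 of the untreated level (log2 -1.84, adjusted p = 0.0273). No other single library left out gave a call: the level was 0.619, 0.563 and 0.567 of the untreated one without 5-HT treated replicate 1, 5-HT treated replicate 3 and untreated replicate 1 (adjusted p = 0.471, 0.452 and 0.546).

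Mmp2 and Timp2 ordered the libraries almost alike. From high to low both began with untreated replicate 1, untreated replicate 3, 5-HT treated replicate 2 and untreated replicate 2, and ended with 5-HT treated replicates 1 and 3. The summed level of 13 stellate cell and fibroblast markers followed the order of Mmp2 in every library. It was 98.4, 182 and 101 FPKM in 5-HT treated replicates 1 to 3, against 244, 159 and 234 FPKM in untreated replicates 1 to 3. This sum rests mostly on Dcn, Ecm1 and Col3a1 (mean 54.1, 45.5 and 23.2 FPKM), so its order does not describe each marker. Of these 13 markers 1, Reln, fell (0.80, 0.73 and 0.77 FPKM, against 1.49, 2.34 and 1.42 FPKM), 12 did not pass, and 12 of the 13 had negative values. Without 5-HT treated replicate 2, 7 passed as lower, and without 5-HT treated replicate 1 none did. The small proteoglycan Dcn, a fibroblast marker, had 23.0, 62.0 and 22.5 FPKM in 5-HT treated libraries, against 89.6, 41.3 and 86.1 FPKM in untreated ones. Lrat, the retinol-storing enzyme that defines quiescent stellate cells, was low throughout, at 1.12, 1.03 and 1.06 FPKM against 1.36, 1.1 and 1.52 FPKM. The part of these cells in the Mmp2 and Timp2 levels was not tested. Genes nearest to Timp2 in profile, among 7790, were the protease Prss23 and the lymphocyte and dendritic cell genes Cd7 and Ccr7, which differed from it by 0.14, 0.15 and 0.15 on average.

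**Figure D3:**
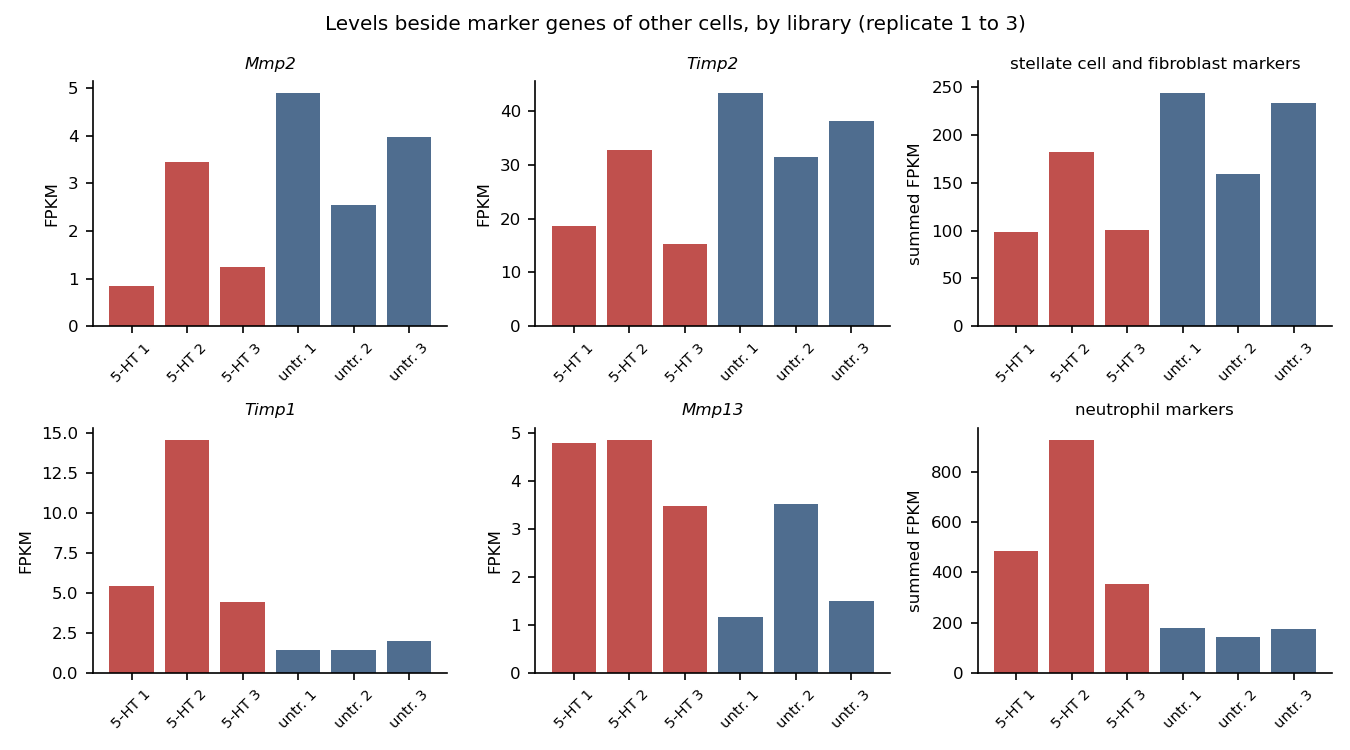
FPKM of Mmp2, Timp2, Timp1 and Mmp13 in each library, beside the summed FPKM of stellate cell and fibroblast markers and of neutrophil markers, with 5-HT treated libraries (5-HT 1 to 3, red) left of untreated ones (untr. 1 to 3, blue). 5-HT treated replicate 2 stands above the other two 5-HT treated libraries in Mmp2, Timp2, Timp1 and both marker sums.

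Mmp14, the membrane-bound MMP that activates pro-MMP2, was the most abundant of the 5 MMPs. It had 51.9, 46.0 and 52.7 FPKM in 5-HT treated replicates 1 to 3, against 53.5, 59.3 and 52.9 FPKM in untreated replicates 1 to 3. The groups did not overlap, but the gap between them was 0.18 FPKM and the change did not pass (log2 -0.13, SE 0.10, edgeR adjusted p = 0.477). The interval of 2 SE on either side ran from -0.33 to 0.07. Groups without overlap were seen for 3 of the 10 genes (Mmp14, Timp1 and Adamts1; 30%), against 29.6% of all genes tested. Mmp19, an MMP found in macrophages and vessels, had 5.53, 7.01 and 4.11 FPKM in 5-HT treated libraries, against 5.59, 3.57 and 5.19 FPKM in untreated ones (log2 0.21, SE 0.24, edgeR adjusted p = 0.649). Its exons share 789 bases with the opposite-strand gene Tmem198b, which averaged 6.73 FPKM. Reads in these shared bases cannot be told apart without knowing whether counting used strand.

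Set against the summed inhibitors, the Mmp14 level was 0.217, 0.190 and 0.202 of the TIMP sum in 5-HT treated replicates 1 to 3, against 0.227, 0.322 and 0.212 in untreated replicates 1 to 3. The ratio for Mmp13 was 0.0200, 0.0201 and 0.0133 with 5-HT, against 0.00496, 0.0191 and 0.00598 without. For Mmp2 it was 0.00356, 0.0142 and 0.00479 with 5-HT, against 0.0207, 0.0139 and 0.0159 without, and for Mmp12 it was 0.00799, 0.00619 and 0.00318, against 0.00343, 0.0113 and 0.00333. All 4 ratios overlapped between groups, and untreated replicate 2 had the highest ratio of any library for Mmp14 and Mmp12.

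Adamts1, a secreted protease of the proteoglycans versican and aggrecan, was the second most abundant gene of the set. It had 153, 96.4 and 126 FPKM in 5-HT treated replicates 1 to 3, against 95.1, 84.5 and 86.6 FPKM in untreated replicates 1 to 3. All 5-HT treated libraries lay above all untreated ones, with replicate 2 only 1.28 FPKM above the highest untreated library. DESeq2 called Adamts1 as higher (adjusted p = 0.0288). By edgeR the change was 1.41-fold and did not pass (log2 0.50, SE 0.17, edgeR adjusted p = 0.12). Without 5-HT treated replicate 2 it was 1.58-fold and passed (adjusted p = 0.0235), and with each other library left out it was 1.26-fold to 1.46-fold and did not pass (adjusted p = 0.198 to 0.282). Adam17, the sheddase that releases TNF and the TNF receptors from the cell surface, had 21.4, 18.8 and 19.5 FPKM in 5-HT treated libraries, against 17.2, 19.9 and 16.8 FPKM in untreated ones. The groups overlapped and the log2 fold change was 0.16 (SE 0.09, edgeR adjusted p = 0.364), with an interval of 2 SE on either side from -0.03 to 0.35. Exons of Adam17 share 311 bases with the opposite-strand gene Iah1, which averaged 6.99 FPKM. Exons of Timp3 share 1733 bases with Syn3, at 0.255 FPKM on average, and those of Mmp12 share 157 bases with Mmp1b, at 0.03 FPKM.

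5-HT treated replicate 2 was the highest library of its group for 5 of the 10 genes (Mmp2, Mmp13, Mmp19, Timp1 and Timp2) and the lowest for 4 (Mmp14, Timp3, Adamts1 and Adam17). Over all genes tested, it was the highest or lowest of its group for 71.6%. Leaving it out raised the number of the 10 genes past the threshold to 4, with Timp1 and Adamts1 higher and Mmp2 and Timp2 lower, against 6.77% of all genes tested in that fit. Without both libraries numbered 2, a choice made after seeing the data, there were 5: these 4 and Mmp13, at 3.11-fold (adjusted p = 0.00529), against 12.3% of all genes tested in that fit.

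**Figure D4:**
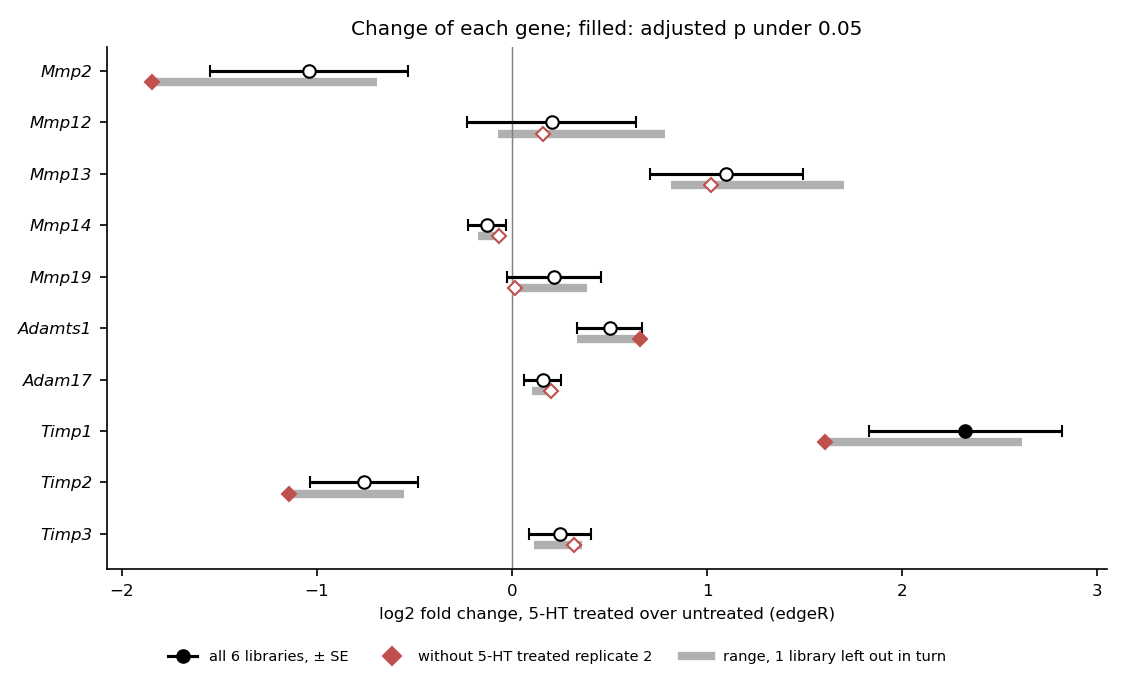
log2 fold change of each gene, 5-HT treated over untreated: circles with SE bars for all 6 libraries, diamonds without 5-HT treated replicate 2, grey bars for the range when each library in turn is left out; filled symbols have an edgeR adjusted p under 0.05. Timp1 is filled in both fits, and Mmp2, Timp2 and Adamts1 are filled only among the diamonds.

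Other MMPs, from a fixed list of 18 of which 11 were tested, held 3 genes that rose, 1 that fell and 7 that did not pass. The neutrophil collagenase Mmp8 had 23.2, 48.6 and 13.7 FPKM in 5-HT treated replicates 1 to 3, against 2.83, 4.91 and 2.73 FPKM in untreated replicates 1 to 3 (log2 3.04, edgeR adjusted p = 0.0117). Gelatinase B, Mmp9, had 7.43, 16.3 and 6.65 FPKM, against 4.27, 2.48 and 2.91 FPKM (log2 1.65, adjusted p = 0.0413). Both are also among the neutrophil markers above, and both were highest in 5-HT treated replicate 2, like Timp1. Mmp27 rose as well (log2 0.97, adjusted p = 0.0303). Mmp28, or epilysin, fell to 1.76, 2.01 and 4.08 FPKM in 5-HT treated libraries, against 7.30, 6.23 and 6.65 FPKM in untreated ones (log2 -1.35, adjusted p = 0.0435). Leaving out 1 library removed the call of each of these 4 at least once, with adjusted p up to 0.0738 for Mmp8, 0.159 for Mmp9, 0.119 for Mmp27 and 0.147 for Mmp28.

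Among 14 other ADAMTS proteases tested, 2 rose, 3 fell and 9 did not pass. Of the 14, 12 had negative and 2 positive values, with a median log2 fold change of -0.73. Adamts4 and Adamts9, which like Adamts1 cleave proteoglycans, were the 2 that rose. Adamts4 had 9.25, 6.93 and 7.47 FPKM in 5-HT treated libraries, against 2.22, 2.58 and 1.76 FPKM in untreated ones (log2 1.86, SE 0.17, edgeR adjusted p = 0.00173). Adamts9 had 8.25, 6.44 and 7.73 FPKM, against 1.65, 2.61 and 1.86 FPKM (log2 1.88, SE 0.18, adjusted p = 0.00197). Both kept their calls in all 17 alternatives, 5-HT treated replicate 2 left out among them. Adamts12, Adamts14 and Adamts5 fell at levels of 1.54 FPKM or less (log2 -1.27, -1.18 and -0.84, adjusted p = 0.00753, 0.034 and 0.0458). Adamts12 kept its call in all 16 alternatives that tested it, whereas Adamts14 lost its call in 8 of 16 and Adamts5 in 9 of 16. The 3 falls became 1 without 5-HT treated replicate 1, untreated replicate 1 or untreated replicate 3. Of 8 other ADAM proteases, Adam9 rose (log2 0.38, adjusted p = 0.0471, a call lost in 14 of 17 alternatives) and Adam12 fell to 0.27, 0.26 and 0.25 FPKM in 5-HT treated libraries, against 1.1, 0.71 and 1.23 FPKM in untreated ones (log2 -1.95, adjusted p = 0.00608). Adam10, the sheddase closest to Adam17 and the more abundant of the pair, had 64.6, 56.2 and 64.2 FPKM with 5-HT, against 64.1, 73.9 and 73.8 FPKM without, and did not pass (adjusted p = 0.331; named after its values were seen).

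Of 5 genes tested from a list of other protease inhibitors, 1 rose. The list also held Pcolce and Pcolce2, which are proteinase enhancers. The gene that rose was A2m, of the broad protease trap alpha-2-macroglobulin. It had 2.11, 2.32 and 2.40 FPKM in 5-HT treated libraries, against 0.46, 1.23 and 0.59 FPKM in untreated ones (log2 1.59, edgeR adjusted p = 0.0326). The call was lost in 5 of 17 alternatives (edgeR adjusted p up to 0.136). These left out any single library other than untreated replicate 2. A list of the plasminogen system, which activates several MMPs, also held serpins, Thbd, Procr and Hpse. Of its 12 genes, 10 did not pass and 2 rose. They were Plaur, the receptor of urokinase (31.3, 33.2 and 31.5 FPKM, against 18.95, 22.97 and 15.6 FPKM; log2 0.75, adjusted p = 0.017), and Procr, the endothelial protein C receptor (12.3, 13.2 and 18.3 FPKM, against 4.06, 4.13 and 3.72 FPKM; log2 1.89, adjusted p = 0.00209). None of 6 convertases and MMP activators passed by edgeR (0 by limma, 2 by DESeq2, and 3 at an unadjusted edgeR p under 0.05). Bsg and Cd44 were the most abundant, Bsg at 96.4, 111 and 108 FPKM against 95.8, 108 and 94.7 FPKM. Cd44 had 42.7, 51.0 and 33.8 FPKM against 27.35, 30.15 and 27.6 FPKM, without overlap (log2 0.59, edgeR adjusted p = 0.0536).

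Around Adam17, 4 of 19 genes for substrates of this sheddase rose and 15 did not pass. These were the adhesion receptors Icam1 (80.7, 63.8 and 78.9 FPKM, against 34.4, 30.8 and 31.6 FPKM; log2 1.21, edgeR adjusted p = 0.00235) and Vcam1 (log2 0.54, adjusted p = 0.0294), the growth factor Tgfa (11.9, 10.9 and 12.8 FPKM, against 5.34, 6.58 and 5.93 FPKM; log2 1.01, adjusted p = 0.00283) and the TNF receptor Tnfrsf1a (log2 0.46, adjusted p = 0.021). Tgfa and Icam1 kept their calls in all 17 alternatives, whereas Tnfrsf1a lost its call in 4 and Vcam1 in 6. Of 6 genes on the list labelled ADAM17 partners, Itgb1 and Tspan5 rose and Pacs2 fell (log2 0.46, 0.53 and -0.40, adjusted p = 0.0435, 0.0339 and 0.0473). These calls were lost in 9, 10 and 14 of 17 alternatives. Whether each gene acts with ADAM17 was not tested.

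Of 29 genes for the matrix proteins on which these enzymes act, 9 fell and 20 did not pass, with a median log2 fold change of -0.96, against -0.02 for all genes tested. The list includes Eln and Col15a1, known from earlier results of these data to be low, so its direction is no independent evidence. The microfibril gene Col6a3 had 2.2, 2.78 and 2.25 FPKM in 5-HT treated replicates 1 to 3, against 7.51, 8.27 and 7.60 FPKM in untreated replicates 1 to 3 (log2 -1.69, SE 0.11, edgeR adjusted p = 0.00107). Elastin, Eln, had 0.78, 1.13 and 1.25 FPKM, against 6.14, 5.07 and 5.56 FPKM (log2 -2.40, adjusted p = 0.00157). The fibrillar collagen gene Col5a2 and the fibrillin gene Fbn1 fell by 1.27 and 1.17 on the log2 scale (adjusted p = 0.00247 and 0.00317). All 4 had groups far apart, with 5-HT treated replicate 2 low like the other two, and kept their calls in all 17 alternatives. Collagen I, chosen after its values were seen, ordered the groups much as Mmp2 did: Col1a1 had 3.24, 10.2 and 2.75 FPKM in 5-HT treated libraries, against 15.3, 9.99 and 13.03 FPKM in untreated ones, and did not pass (adjusted p = 0.163). Without 5-HT treated replicate 2, 16 of the 29 passed as lower, whereas 6 did without 5-HT treated replicate 1 or without untreated replicate 2, and 4 did without untreated replicate 1 or without untreated replicate 3. Of 11 genes for crosslinking and collagen-modifying enzymes, 1 rose, the prolyl hydroxylase gene P4ha1 (log2 0.91, edgeR adjusted p = 0.00298). The stellate cell and fibroblast markers summed beside Mmp2 share Col1a1, Col1a2, Col3a1, Dcn and Lum with these matrix genes. Their sum was 182 FPKM in 5-HT treated replicate 2, above 159 FPKM in untreated replicate 2. The summed matrix genes did not overlap between groups, at 893, 960 and 942 FPKM with 5-HT, against 1230, 1280 and 1210 FPKM without. Endothelial markers were mixed: 5 of 11 had positive and 6 negative values, with a median log2 fold change of -0.36. Kdr, Ptprb and Oit3 fell (log2 -0.78, -0.82 and -0.74), Lyve1 rose (log2 1.79), and 7 did not pass. Of these, Cdh5, Pecam1, Vwf and Gpr182 had log2 values of 0.33, 0.26, 0.20 and 0.086. The others, Stab2, Clec4g and Dnase1l3, had negative values. The count of falls was 0 when 5-HT treated replicate 1, untreated replicate 1 or untreated replicate 3 was left out. The part of these cells in the matrix genes was not tested.

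**Figure D5:**
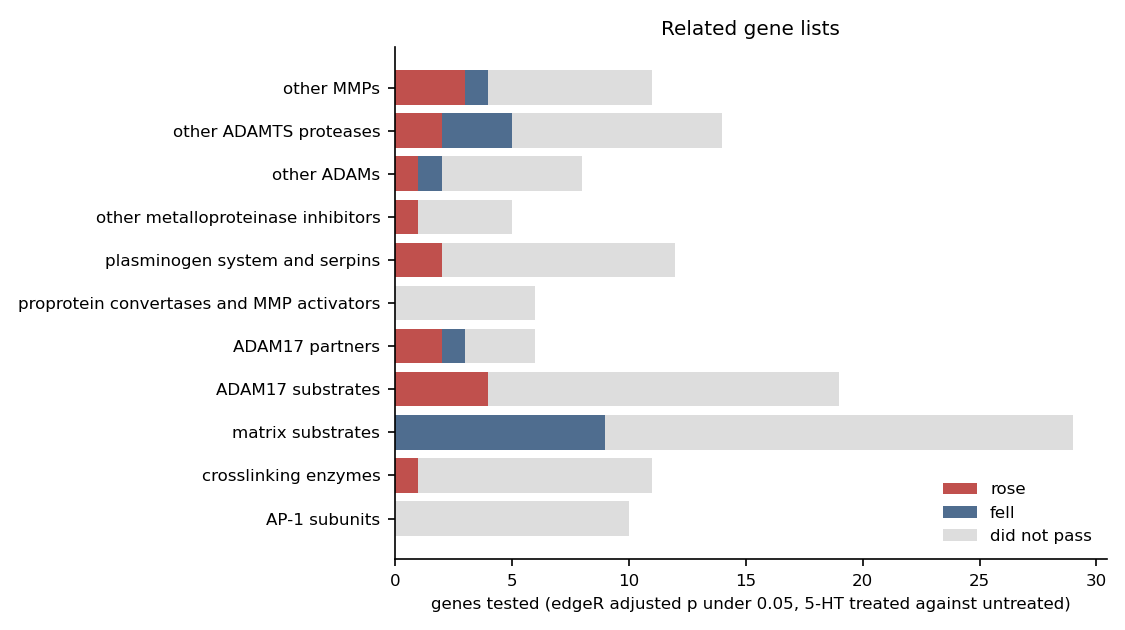
Number of tested genes in each related list that rose (red), fell (blue) or did not pass (grey) with 5-HT against untreated, by edgeR adjusted p under 0.05. Matrix substrates show 9 falls among 29 genes, other MMPs 3 rises and 1 fall among 11, and AP-1 subunits and convertases show neither.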

How the data were processed

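All 6 libraries were used, and 0 columns of the deposited table went unused for want of a sample. The authors deposited a raw count per gene and, beside it, an FPKM value made from it; mm10, featureCounts 2.0.1 and HISAT2 2.2.1 are listed, per the submitters' processing notes, without their roles. No source used here states a strand setting. Of deposited FPKM values of at least 1, 100% matched the count, exonic length and column total within 0.5%. The table's own positions differ from mm10, so positions are those of GENCODE M21, taken by gene ID.

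Counts were tested with edgeR 4.0.16 in R 4.3.3 (TMM, filterByExpr, quasi-likelihood, two-sided, Benjamini-Hochberg over 16641 genes, threshold 0.05). SE is the fold change over the square root of F. Alternatives were DESeq2 1.42.0, limma 3.58.1 on log2(FPKM + 1), + 0.1 and + 5, other scalings and filters, a replicate block and leaving out libraries. On simulated counts of 16641 genes for this comparison, the share found by edgeR was 5 of 67 at a 1.5-fold change, 39 of 67 at 2-fold and 51 of 66 at 4-fold. Of its 104 calls, 9 (8.65%) were false.

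The genes and lists were chosen with earlier results of these data known. By rule, the 10 genes were named, with the 3 nearest profiles to the higher and the lower gene of smallest p. From each list the rule took up to 4 called genes of smallest p, or else its 2 most abundant. Not every gene taken by the rule from the cell marker lists is printed. Other genes lie outside this rule and were not fixed in advance by it. Among them are Adam10, Col1a1, Adamts5, Clec4f, S100a9, Ly6g, Ngp, Ltf, Camp, Dcn, Ecm1, Col3a1 and Lrat. Cdh5, Pecam1, Vwf and Gpr182 are also outside it.

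The replicates of a group differed by more than counting noise (chi-square over degrees of freedom 6.78 to 61.1), so all were kept as separate samples.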

Additional observations from a re-analysis of the deposited data

How the results depend on the processing

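The number of genes called, 1288, stayed within 1.5 times under 9 of the 10 alternatives that keep all 6 libraries, and was 2259 with DESeq2. Leaving out 1 library gave 329 to 1343 (560 when it was 5-HT treated replicate 1, and 329 or 336 when it was untreated replicate 1 or 3), and leaving out both libraries numbered 2, chosen after seeing the data, gave 2052. Of the 10 proteases and inhibitors, 1 was called. DESeq2 called 4 (Timp1, Timp2, Adamts1 and Mmp13). Limma on log2(FPKM + 1) and on log2(FPKM + 5) called 0 each (4 at an unadjusted p under 0.05 in both). Leaving out 1 library gave 0 to 4, and leaving out both libraries numbered 2 gave 5. In the fit with a replicate block 896 genes and 0 of the 10 were called (4 at an unadjusted p under 0.05). Deviations of same-numbered libraries from their group means correlated at 0.0749, 0.0727 and -0.0115. The highest value of any pair was 0.0923, for 5-HT treated replicate 3 and untreated replicate 1. Values this small cannot decide whether same-numbered libraries shared a batch, and the labels give them only a number in common. Timp1 kept its call in 10 of 17 alternatives, with log2 values of 0.91 to 2.61. The sign of Mmp12 turned when 1 library was left out (-0.070 to 0.78), and that of Mmp19 without both libraries numbered 2 (-0.15). Mmp14, Timp3 and Adam17 kept their sign and did not pass in any of the 17. The cause of these changes was not tested. Scaling moved the median of all genes by less than 0.1 on the log2 scale. Depth limits Timp1, Mmp2, Mmp12 and Mmp13 most, with as few as 23, 46, 103 and 57 counts in a library.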
